A study of Mus musculus with 6 samples.

Results

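The 3 ephrin-B ligand genes (*Efnb1*, *Efnb2* and *Efnb3*), the 5 EphB receptor genes (*Ephb1*, *Ephb2*, *Ephb3*, *Ephb4* and *Ephb6*) and 2 EphA receptor genes (*Epha3* and *Epha4*) were examined in fibroblasts of the pubertal mouse mammary gland. They were taken by name as members of the ephrin and Eph families, with earlier results of these data known, and all 10 were present among the 27179 genes of the count table. The cells were Lin–CD24–Pdgfrα+ cells sorted from 6-week-old FVB/N mice into a CD34hi and a CD34lo population, which differ in the surface glycoprotein CD34. Poly(A) RNA was sequenced from 3 pools of 2 mice each, and because both populations were sorted from every pool, the 6 libraries form 3 pairs. The labels name no transgene and no treatment, and both populations share the strain, the age and the Pdgfrα+ gate. The comparison asks which ephrin and Eph genes differ between the CD34hi cells, regarded in the study as mesenchymal progenitors, and the CD34lo cells.

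Ephrins are cell-surface ligands for Eph receptors, the largest family of receptor tyrosine kinases, so that both partners act where 2 cells touch. Ephrin-B proteins span the membrane and signal back into the cell that carries them (reverse signalling), whereas the bound receptor signals into its own cell (forward signalling), and the outcome is often repulsion, sorting or adhesion of the cells. EphB receptors bind mostly ephrin-B ligands, while EphA4 binds ephrins of both classes and EphA3 mainly ephrin-A ligands. Ephrin-B2 and EphB4 are best known as markers of arteries and veins, and both have also been described in the mammary epithelium.

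Among the 10 genes, 7 differed between the populations, and *Efnb2* alone was higher in CD34hi cells (2.35-fold). The other 6, *Efnb3*, *Ephb2*, *Ephb3*, *Ephb6*, *Epha3* and *Epha4*, were higher in CD34lo cells by 1.43-fold (*Ephb2*) to 7.32-fold (*Ephb6*). The remaining 3 genes, *Efnb1*, *Ephb1* and *Ephb4*, had lower means in CD34hi cells but did not pass (edgeR quasi-likelihood test across all genes, Benjamini-Hochberg adjusted p threshold 0.05). Calls of this kind were common: 5411 of the 15219 genes tested (35.6%) passed, 16.9% higher in CD34hi cells and 18.7% higher in CD34lo cells. The 10 genes had a median log2 fold change of -1.17 (CD34hi against CD34lo) beside -0.0064 over all genes tested. *Efnb3* and *Ephb1* reached the low-count filter (0.243 CPM in 3 libraries) only through CD34lo cells, where they are higher, so their place among the genes tested rests on that direction. Over the other 8 genes the median was -0.84, and 6 passed, 1 higher in CD34hi and 5 in CD34lo cells. The ranges of the 3 libraries per population did not overlap for 9 of the 10 genes, 8 of them higher in CD34lo cells, where 50.1% of all genes tested had such separate ranges in either direction and 25.3% with CD34lo higher. When the pool was added as a block, 9 of the 10 genes passed, 8 of them higher in CD34lo cells, and the only gene that did not was *Ephb1*.

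The depth was 28764779 to 52402410 counts in the CD34lo libraries and 36740921 to 45958181 in the CD34hi libraries, so that 3 counts corresponded to 0.0553 to 0.108 CPM (reads per 1000000 counted reads). Levels below are CPM after TMM scaling (trimmed mean of M values), which serve for comparing a gene between libraries. The labels were checked on *Cd34*, whose level was 634 ± 158 CPM in CD34lo and 2571 ± 75.2 CPM in CD34hi cells (mean ± SD, n = 3 each), and on *Pdgfra*, at 1256 ± 197 and 754 ± 149 CPM. Because RNA of many cells was pooled in each library, fewer cells of a type that expresses a gene and less of its RNA per cell cannot be told apart.

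**Figure D1:**
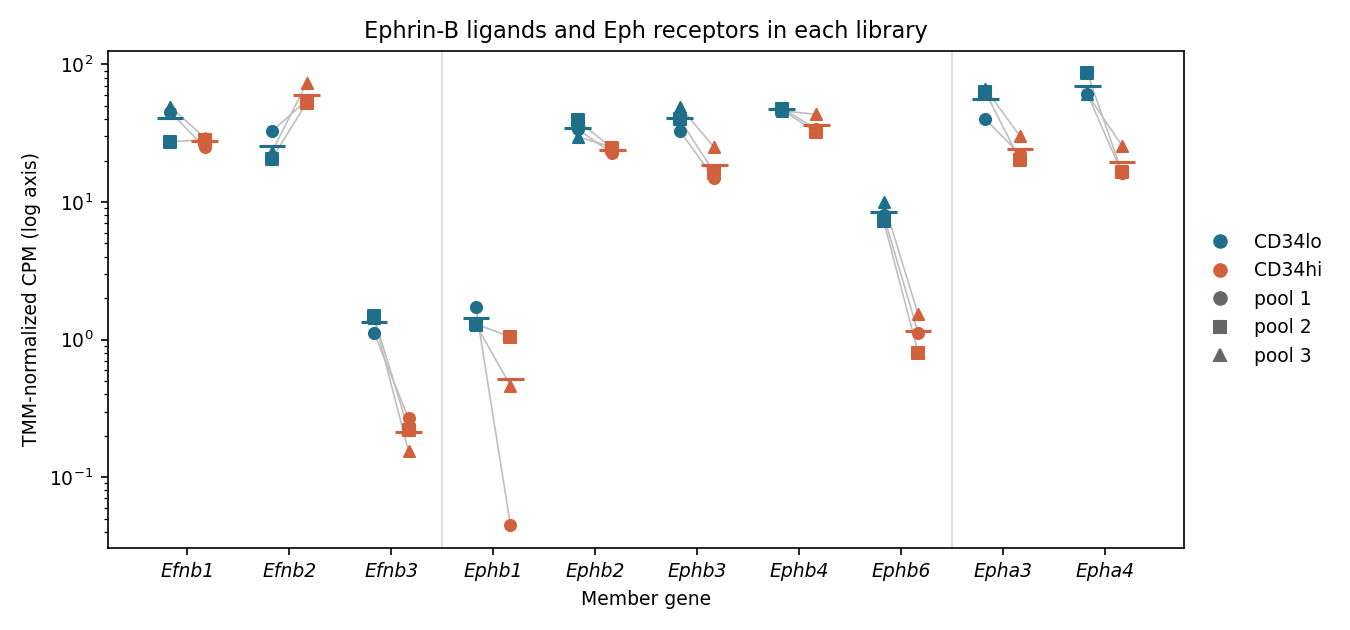
Normalized level of each ephrin-B and Eph receptor gene in each library, in CPM on a log axis; circles, squares and triangles are pools 1, 2 and 3, short bars are population means and grey lines join the 2 populations of a pool. *Efnb2* rises from CD34lo (blue) to CD34hi (orange) in all 3 pools, the 7 receptors fall in all 3 pools, and *Efnb1* falls in 2 pools and is level in pool 2.

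The stretches before the start sites of *Efnb2*, *Ephb6* and *Epha4* are shown because *Efnb2* was the gene higher in CD34hi cells, while *Ephb6* and *Epha4* had the smallest adjusted p among the genes higher in CD34lo cells. They are RefSeq sequences of build GRCm38.p6, written 5′ to 3′ on the gene's strand, with GC boxes (GGGCGG or its reverse complement) in capitals. The *Efnb2* stretch is chr8:8661243-8661492 (minus strand), that of *Ephb6* is chr6:41605261-41605481 (plus strand) and that of *Epha4* is chr1:77515089-77515338 (minus strand). None of the printed bases lies in an annotated exon of its own gene, and the RefSeq start of *Efnb2* lies upstream of the gene span in the count table.
Efnb2: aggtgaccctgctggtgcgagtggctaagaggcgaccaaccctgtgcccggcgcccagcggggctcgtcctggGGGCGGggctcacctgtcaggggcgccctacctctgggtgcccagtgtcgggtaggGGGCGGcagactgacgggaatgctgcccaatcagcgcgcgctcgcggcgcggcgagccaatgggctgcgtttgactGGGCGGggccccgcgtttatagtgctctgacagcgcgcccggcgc
Ephb6: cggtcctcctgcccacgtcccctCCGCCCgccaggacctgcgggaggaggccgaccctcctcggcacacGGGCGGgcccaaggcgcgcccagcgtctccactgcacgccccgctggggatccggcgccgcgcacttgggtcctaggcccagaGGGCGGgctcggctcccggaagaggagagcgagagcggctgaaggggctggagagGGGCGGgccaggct
Epha4: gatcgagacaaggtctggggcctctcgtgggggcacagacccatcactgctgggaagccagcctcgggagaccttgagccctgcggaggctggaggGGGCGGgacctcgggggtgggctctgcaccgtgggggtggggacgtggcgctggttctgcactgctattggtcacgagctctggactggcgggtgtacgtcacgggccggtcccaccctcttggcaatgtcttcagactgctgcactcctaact

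The capitals mark 3 GC boxes for *Efnb2*, 4 for *Ephb6* and 1 for *Epha4*. Over windows of 250 bases before the start, which RefSeq gave for 9 of the 10 genes, GGGCGG on either strand was found in 5 (*Efnb2*, *Ephb3*, *Ephb4*, *Ephb6* and *Epha4*), compared with 32.7% of all 32851 windows of that length. The core of the Notch effector RBPJ, TGGGAA on either strand, was found before *Efnb1* and *Epha4*, compared with 21.6% of all windows. TATAAA on either strand lay before *Efnb2* only (12.4% of all windows). The GLI consensus of Hedgehog signalling, TGGGTGGTC on either strand, was in 0 of the 9 windows and in 0.225% of all. None of the 4 motifs contains another, and the matches describe these windows only. The 9 windows had 10 to 27 CpG sites and 54.0% to 76.8% G or C, beside medians of 6 CpG sites and 52.4% over all windows, and all 9 were above both medians.

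*Efnb2* (Entrez gene 13642) encodes ephrin-B2, the ligand of EphB4 and other EphB receptors, and lies on the minus strand of chromosome 8 at 8617439-8660773 (GRCm38). Its level was 32.7, 20.6 and 23.2 CPM in the CD34lo libraries of pools 1, 2 and 3, and 54.7, 52.6 and 72.7 CPM in the CD34hi libraries. Every CD34hi library was above every CD34lo library. The difference was a log2 fold change of 1.23 ± 0.20 (SE) in favour of CD34hi cells, with an adjusted p of 0.00153 (edgeR, Benjamini-Hochberg).

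*Efnb1* (13641), on chromosome X at 99136130-99148991 (plus strand), encodes ephrin-B1, mutated in craniofrontonasal syndrome. It stood at 45.4, 27.5 and 49.4 CPM in CD34lo and at 25.0, 28.3 and 29.4 CPM in CD34hi cells. The ranges overlapped through the CD34lo library of pool 2, the lowest of its population. The log2 fold change was -0.57 ± 0.21 (SE) with an adjusted p of 0.0608 (edgeR, Benjamini-Hochberg), and its unadjusted 95% interval ran from -1.04 to -0.10. With the pool as a block the adjusted p was 0.0337, and without the CD34lo library of pool 2 it was 0.00282 at a log2 fold change of -0.79. Without pool 1 or without the CD34lo library of pool 3 the log2 fold change shrank to -0.39 and -0.41, with adjusted p of 0.344 and 0.195 (edgeR, Benjamini-Hochberg), and over 18 alternative settings the adjusted p ranged from 0.00282 to 0.344.

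*Efnb3* (13643; chromosome 11, 69554092-69560237, minus strand) encodes ephrin-B3, known as a midline repellent of the spinal cord. It was a rare transcript, with 61, 41 and 45 counts in the CD34lo libraries and 12, 8 and 7 in the CD34hi libraries, or 1.13, 1.47 and 1.45 CPM beside 0.268, 0.221 and 0.154 CPM. The CD34hi libraries all lay below the CD34lo libraries, and as only 1 of them reached the filter level, *Efnb3* was not tested when 10 counts were asked of every library. The log2 fold change was -2.63 ± 0.39 (SE), 6.19-fold lower in CD34hi cells, with an adjusted p of 0.000917 (edgeR, Benjamini-Hochberg).

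Measured per kilobase of gene length (RPKM), the scale on which different genes can be compared, *Efnb1* had the higher level in each CD34lo library and *Efnb2* in each CD34hi library. *Efnb1* made up 63.8%, 61.8% and 72.3% of the summed RPKM of the 3 ligands in the CD34lo libraries and 37.5%, 41.5% and 34.8% in the CD34hi libraries. *Efnb2* made up 31.7% ± 5.30 of it in CD34lo and 61.8% ± 3.40 in CD34hi cells (SD, n = 3 each). *Efnb3* contributed 2.37% ± 0.898 and 0.307% ± 0.113. The ratio of the *Efnb2* to the *Efnb1* level was 0.354 to 0.565 in CD34lo and 1.40 to 1.87 in CD34hi libraries, with no overlap. The summed ligand level, by contrast, overlapped, at 13.7 to 21.9 RPKM in CD34lo and 20.4 to 25.9 RPKM in CD34hi libraries (exact permutation test, two-sided p = 0.6). For the ratio and for each ligand share the exact permutation p was 0.1, the smallest that 3 against 3 libraries allow, and 0.143 for the shares after Benjamini-Hochberg adjustment over 10 shares.

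**Figure D2:**
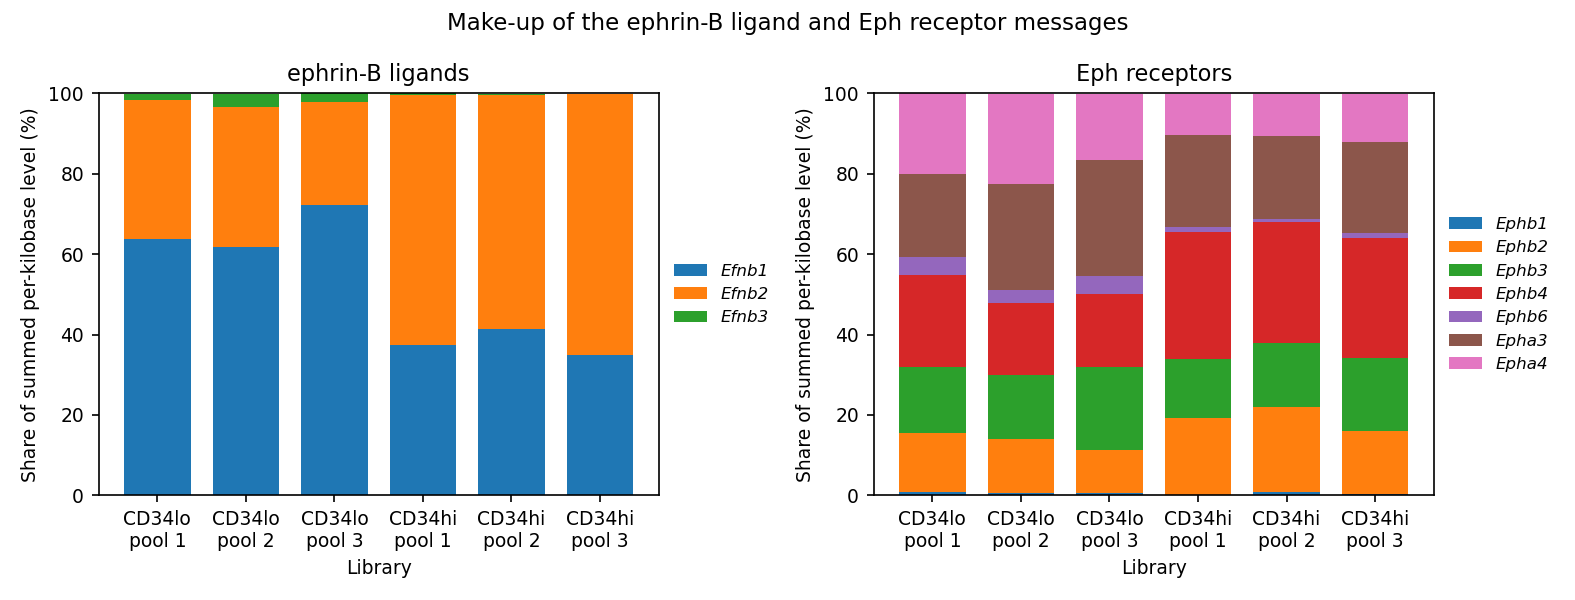
Share of the summed per-kilobase level that each gene contributed in each library, for the ephrin-B ligands (left) and the Eph receptors (right), in percent; each bar is 1 library. *Efnb1* holds 61.8% to 72.3% of the ligand level in CD34lo and 34.8% to 41.5% in CD34hi libraries, and *Ephb4* holds 17.9% to 23.0% of the receptor level in CD34lo and 29.9% to 31.6% in CD34hi libraries.

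The 7 receptors all had lower means in CD34hi cells, and 5 of them passed, beside 18.7% of all genes tested called higher in CD34lo cells. *Ephb1*, which did not pass, reached the low-count filter only through CD34lo cells. *Ephb6* (13848; chromosome 6, 41605482-41620507, plus strand) encodes EphB6, a receptor whose kinase domain is inactive. Its level was 8.02, 7.34 and 10.1 CPM in CD34lo and 1.12, 0.800 and 1.52 CPM in CD34hi libraries. The populations were far apart, with a log2 fold change of -2.87 ± 0.27 (SE), 7.32-fold lower in CD34hi cells, and an adjusted p of 7.16e-05 (edgeR, Benjamini-Hochberg), the smallest of the 10 genes.

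*Epha4* (13838; chromosome 1, 77367185-77515088, minus strand) encodes EphA4, the receptor that accepts ephrin-A and ephrin-B ligands and is known from axon guidance. It stood at 61.0, 86.1 and 60.6 CPM in CD34lo and at 16.1, 16.4 and 25.6 CPM in CD34hi libraries. All CD34lo libraries exceeded all CD34hi libraries, by 3.57-fold in the fit (log2 fold change -1.84 ± 0.22 SE, adjusted p 0.000287, edgeR with Benjamini-Hochberg adjustment). *Epha3* (13837; chromosome 16, 63545218-63864157, minus strand), the gene of a receptor found on mesenchymal cells, had 39.9, 62.8 and 66.3 CPM in CD34lo and 22.2, 20.03 and 30.0 CPM in CD34hi libraries. Its ranges were separate too, and the log2 fold change was -1.22 ± 0.22 (SE) with an adjusted p of 0.00278 (edgeR, Benjamini-Hochberg).

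*Ephb3* (13845; chromosome 16, 21204795-21223304, plus strand) and *Ephb2* (13844; chromosome 4, 136653608-136835935, minus strand) encode the receptors that position cells along the intestinal crypt. *Ephb3* had 32.9, 39.8 and 49.4 CPM in CD34lo and 14.9, 16.4 and 24.9 CPM in CD34hi libraries. The log2 fold change of *Ephb3* was -1.12 ± 0.22 (SE), adjusted p 0.00462 (edgeR, Benjamini-Hochberg), with no overlap between the populations. *Ephb2* had 33.8, 39.2 and 29.9 CPM in CD34lo and 22.6, 24.5 and 25.0 CPM in CD34hi libraries, again without overlap but closer together. The log2 fold change of *Ephb2* was -0.51 ± 0.13 (SE), adjusted p 0.0152 (edgeR, Benjamini-Hochberg). That call was lost when pool 1, pool 2, or the CD34hi library of either pool was left out, with adjusted p of 0.129, 0.140, 0.0794 and 0.0560, within a range of 0.00775 to 0.140 over 18 settings.

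*Ephb4* (13846; chromosome 5, 137350109-137374522, plus strand) encodes the venous partner of ephrin-B2. It was at 48.4, 47.1 and 46.0 CPM in CD34lo and at 33.8, 32.0 and 43.4 CPM in CD34hi libraries. The ranges did not overlap, yet the CD34hi library of pool 3 lay close to the lowest CD34lo library. The log2 fold change was -0.37 ± 0.14 (SE), adjusted p 0.0601 (edgeR, Benjamini-Hochberg), with an unadjusted 95% interval of -0.68 to -0.07. With the pool as a block the adjusted p was 0.0374, and without the CD34hi library of pool 3 it was 0.00946, within a range of 0.00946 to 0.343 over 18 settings. *Ephb4* shares 33 exonic bases with *Zan* on the opposite strand, a gene with 45 counts in all libraries beside 10004 for *Ephb4*.

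*Ephb1* (270190; chromosome 9, 101922128-102354693, minus strand), the gene of a receptor known from the optic chiasm, was rare and uneven. The CD34lo libraries held 93, 36 and 40 counts (1.72, 1.30 and 1.29 CPM), and the CD34hi libraries 2, 38 and 21 counts (0.0447, 1.05 and 0.463 CPM). All CD34hi libraries were lower, but they ranged from below the level of 3 counts to near the CD34lo libraries. The log2 fold change of -1.50 ± 0.72 (SE) did not pass, with an adjusted p of 0.143 (edgeR, Benjamini-Hochberg) and an unadjusted 95% interval of -3.15 to 0.15. With the pool as a block the adjusted p was 0.0681. Without the CD34hi library of pool 2 it was 0.0426 at a log2 fold change of -2.48. Without pool 1, or without its CD34hi library alone, the log2 fold change was -0.76 and -0.91 and the adjusted p 0.359 and 0.192 (edgeR, Benjamini-Hochberg), and the adjusted p ranged from 0.0426 to 0.359 over 17 settings. *Ephb1* shares 152 exonic bases with the antisense transcript *Gm26846*, and reads of the 2 strands cannot be told apart with a library kit that does not mark strand.

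Together, the 7 receptors summed to 48.3 to 60.2 RPKM in CD34lo and 24.5 to 33.3 RPKM in CD34hi libraries, a ratio of 0.494 (exact permutation test, two-sided p = 0.1, the smallest possible). The other EphA receptors are outside this sum and the shares below. Of these, 4 were tested, with 3 higher in CD34lo cells, beside 18.7% of all genes tested. *Epha8*, 1 of the 3, reached the low-count filter only through CD34lo cells, and without it 2 were higher in CD34lo cells. The 1 higher in CD34hi cells, *Epha1* (2.46 ± 0.476 RPKM in CD34lo and 10.4 ± 1.74 RPKM in CD34hi), had a higher mean there than any of the 7. Among the 7 receptors, *Ephb4* took 19.7% ± 2.85 of their summed level in CD34lo and 30.5% ± 0.989 in CD34hi cells. *Ephb2* took 13.0% ± 2.00 and 18.6% ± 2.67 (SD, n = 3 each). *Epha4* took 19.7% ± 3.04 and 11.05% ± 0.955, and *Ephb6* 4.09% ± 0.746 and 1.10% ± 0.199. These 4 shares had separate ranges but did not pass a test (exact permutation p = 0.1, 0.143 after Benjamini-Hochberg adjustment over 10 shares). The shares of *Epha3* (25.3% ± 4.09 and 22.0% ± 1.25, exact permutation p = 0.3), *Ephb3* (17.7% ± 2.54 and 16.3% ± 1.72, p = 0.6) and *Ephb1* (0.566% ± 0.169 and 0.418% ± 0.452, p = 0.6) overlapped.

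In order of mean RPKM, CD34lo cells had *Epha3* (14.2), *Efnb1* (12.5), *Epha4* (10.9), *Ephb4* (10.8), *Ephb3* (9.82), *Ephb2* (7.17), *Efnb2* (5.91), *Ephb6* (2.25), *Efnb3* (0.420) and *Ephb1* (0.307). Neighbours in that order overlapped between libraries except *Efnb2* and *Ephb6*, and *Ephb6* and *Efnb3*. CD34hi cells had *Efnb2* first (13.9), followed by *Efnb1* (8.45), *Ephb4* (8.34), *Epha3* (6.06), *Ephb2* (5.03), *Ephb3* (4.52), *Epha4* (3.06), *Ephb6* (0.305), *Ephb1* (0.111) and *Efnb3* (0.0667). Here *Efnb2* stood clear of *Efnb1* and *Epha4* stood clear of *Ephb6*, while the other neighbours overlapped. Thus *Efnb2* was the seventh of the 10 genes in CD34lo and the first in CD34hi cells.

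The rest of the family also had calls in both directions, beside 16.9% of all genes tested called higher in CD34hi and 18.7% in CD34lo cells. Of the 5 ephrin-A ligands, which are anchored to the membrane by a lipid, 4 could be tested, and 1 was higher in CD34hi and 2 in CD34lo cells (median log2 fold change -0.52). *Efna5*, whose protein binds EphA3 and EphA4, was higher in CD34hi cells (18.9 ± 5.03 CPM in CD34lo, 44.5 ± 8.66 CPM in CD34hi, log2 fold change 1.23, adjusted p 0.00239, edgeR with Benjamini-Hochberg adjustment). *Efna1* (3.40 ± 0.791 and 1.07 ± 0.222 CPM) and *Efna2* (7.05 ± 1.03 and 2.60 ± 0.514 CPM) were higher in CD34lo cells, with log2 fold changes of -1.66 and -1.43. *Efna4* did not pass (log2 fold change 0.39, edgeR with Benjamini-Hochberg adjusted p 0.545), and *Efna3*, with 25 counts over all libraries, was not tested.

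Of the 7 other EphA receptor genes, 4 could be tested and all 4 passed, 3 of them higher in CD34lo cells (35.6% of all genes tested passed, 18.7% higher in CD34lo cells). Among these, *Epha8*, reached the low-count filter only through CD34lo cells, and without it 1 was higher in CD34hi and 2 in CD34lo cells, with a median log2 fold change of -1.21 in place of -2.73. *Epha1* was the receptor that went the other way, at 8.05 ± 1.56 CPM in CD34lo and 34.0 ± 5.69 CPM in CD34hi cells (log2 fold change 2.07, adjusted p 5.52e-05, edgeR with Benjamini-Hochberg adjustment). *Epha7* was 19.0-fold higher in CD34lo cells (12.7 ± 4.04 and 0.659 ± 0.351 CPM, log2 fold change -4.25), and *Epha2* 2.31-fold (7.44 ± 2.14 and 3.22 ± 0.564 CPM). *Epha8*, named after its values were seen, had 394 counts in the CD34lo and 3 in the CD34hi libraries, a ratio of 147 after scaling to the library sizes, with a 95% interval of 49.8 to 714 that covers counting error only. *Epha10* had 2 counts in all, and *Epha5* and *Epha6* had 0, below the 3 counts that set the floor.

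**Figure D3:**
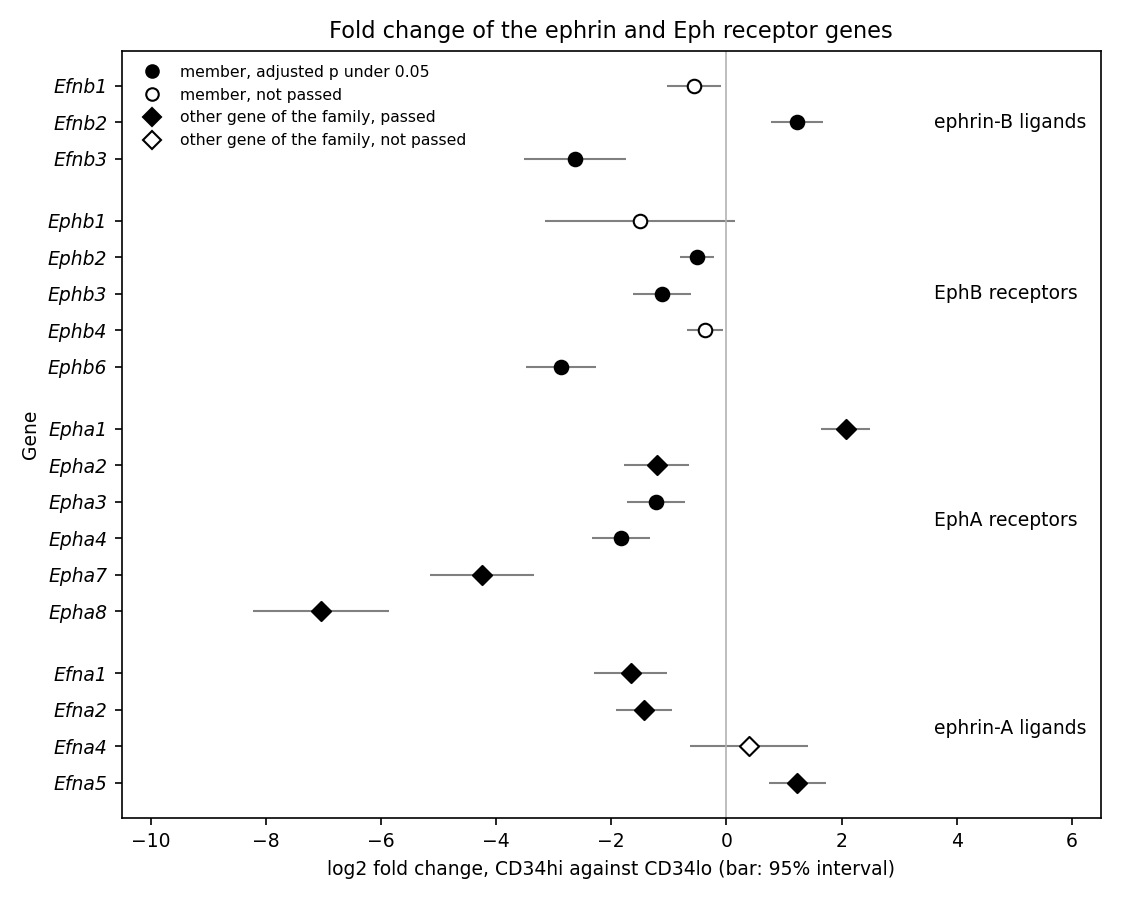
Log2 fold change of CD34hi against CD34lo cells for the ephrin and Eph genes that could be tested, with unadjusted 95% intervals; circles are the 10 genes of the ephrin-B and Eph receptor set, diamonds the other family genes, and filled symbols passed the edgeR test. *Efnb2*, *Efna5* and *Epha1* lie to the right of 0 with filled symbols, and the other filled symbols lie to the left.

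Genes that act with the ligands and receptors had calls in both directions, as had all genes tested (16.9% higher in CD34hi, 18.7% in CD34lo cells). Of 15 proteins that bind the ephrin-B tail or act on it, 13 could be tested, of which 2 were higher in CD34hi and 4 in CD34lo cells (median log2 fold change -0.07). *Fyn*, a Src family kinase that phosphorylates ephrin-B tails, rose from 139 ± 11.3 CPM in CD34lo to 363 ± 21.1 CPM in CD34hi cells (log2 fold change 1.38, adjusted p 5.18e-05, edgeR with Benjamini-Hochberg adjustment). *Nck2*, the adaptor that docks on phosphorylated ephrin-B, was lower in CD34hi cells (18.6 ± 2.04 and 9.37 ± 0.833 CPM, log2 fold change -0.99). The kinase gene *Yes1* and *Rgs3*, whose protein links ephrin-B to chemokine receptors, were lower in CD34hi cells (log2 fold changes -0.48 and -0.46), and the PDZ protein gene *Pick1* was higher (0.51). The adjusted p of these 3 genes was 0.0251, 0.0498 and 0.0440 (edgeR, Benjamini-Hochberg), and the calls were lost in 7, 10 and 11 of 18 alternative settings, respectively.

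Among 25 genes of forward signalling, 24 could be tested, and 8 were higher in each population (median log2 fold change -0.38). *Arhgef15*, which did not pass, reached the low-count filter only through CD34lo cells. Without it the median log2 fold change was -0.25, with 8 still higher in each population. Of all genes tested, 16.9% were higher in CD34hi and 18.7% in CD34lo cells. In CD34hi cells the largest differences were those of *Grb10*, an adaptor of receptor tyrosine kinases (189 ± 21.9 CPM in CD34lo and 626 ± 17.2 CPM in CD34hi, log2 fold change 1.73) and of the kinase genes *Rock2* (1.31) and *Abl2* (1.12). In CD34lo cells they were those of *Kalrn*, an exchange factor for Rac that EphB receptors recruit (26.0 ± 1.93 and 4.05 ± 0.583 CPM, log2 fold change -2.68), of *Chn1*, the Rac-inactivating α-chimaerin downstream of EphA4 (-2.39), and of *Sipa1l1*, a Rap regulator (-2.22). All 6 passed, with edgeR Benjamini-Hochberg adjusted p of 6.88e-06 (*Kalrn*) to 0.00146 (*Chn1*).

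For proteases, phosphatases and turnover genes, 13 of 15 could be tested, with 6 higher in CD34hi and 4 in CD34lo cells (median log2 fold change 0.33). The shares over all genes tested were 16.9% and 18.7%. The sheddase genes *Adam10* (41.8 ± 7.0 and 77.4 ± 5.35 CPM, log2 fold change 0.89) and *Adam17* (0.53) were higher in CD34hi cells, as was the receptor phosphatase gene *Ptprj* (1.29). The *Adam17* call was lost without pool 1 or pool 2 (edgeR, Benjamini-Hochberg adjusted p up to 0.0804, from 0.00144 over 18 settings). *Ptprb*, a receptor phosphatase known from endothelium (23.0 ± 5.30 and 6.55 ± 2.48 CPM, log2 fold change -1.81), *Ptpn1*, the phosphatase PTP1B (-1.10), and *Inppl1*, a lipid phosphatase that binds EphA2 (-0.69), were lower in CD34hi cells. The *Inppl1* call was lost without pool 1 (adjusted p 0.0513, edgeR with Benjamini-Hochberg adjustment, the highest of its 18 settings, from 0.000119).

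**Figure D4:**
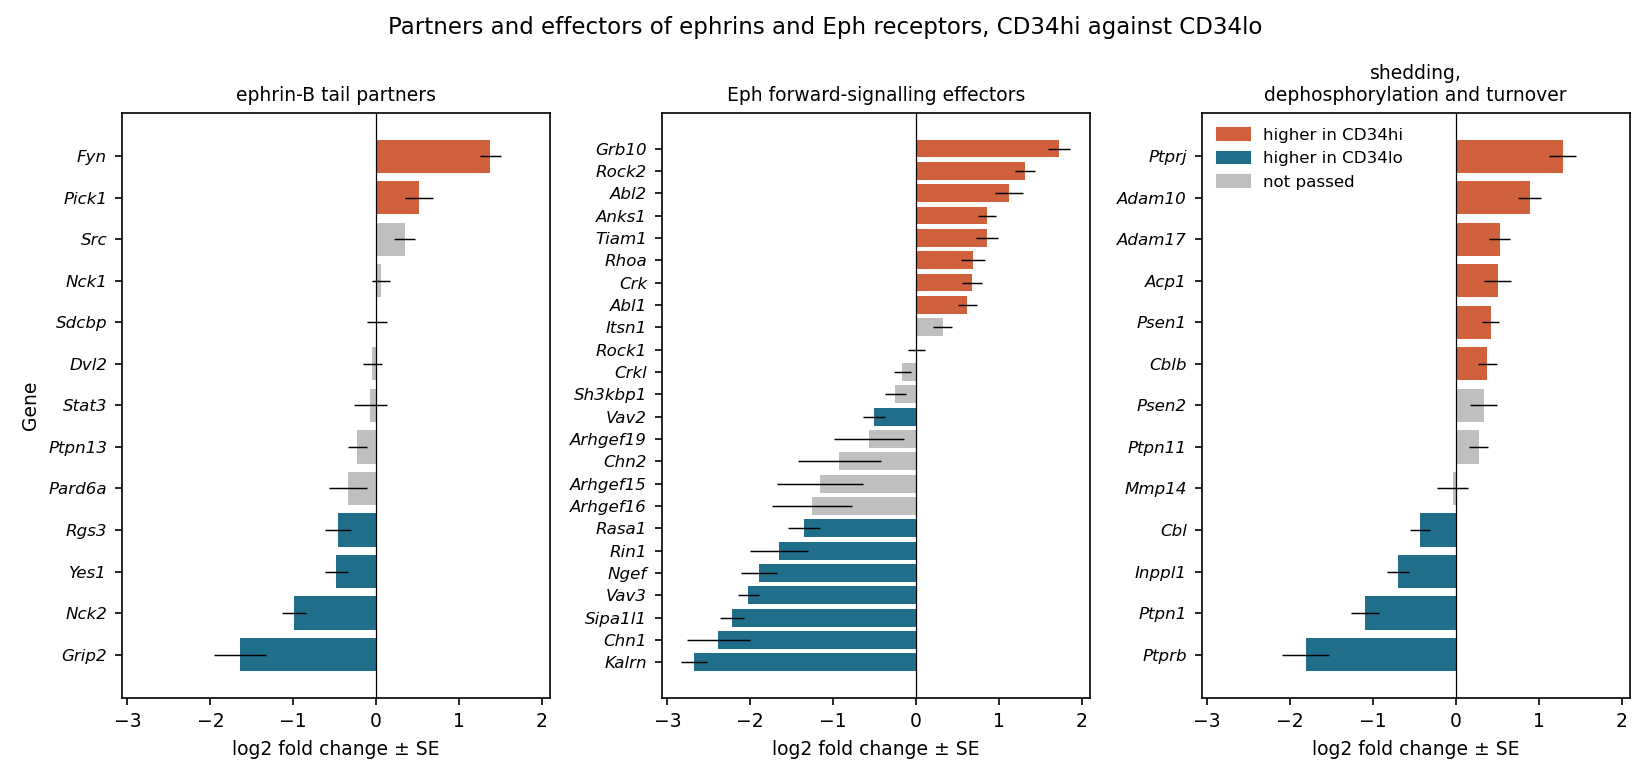
Log2 fold change ± SE of CD34hi against CD34lo cells for genes that bind ephrin-B tails (left), act downstream of Eph receptors (middle) or shed, dephosphorylate or turn them over (right); bars are coloured by the direction of genes that passed the edgeR test, and grey bars did not pass. Each panel has coloured bars on both sides of 0, with 2 and 4, 8 and 8, and 6 and 4 genes higher in CD34hi and in CD34lo cells.

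Markers of other cell types that carry ephrins and Eph receptors were read beside these results, and beside the 16.9% of all genes tested called higher in CD34hi and 18.7% in CD34lo cells. Of 10 endothelial markers, all tested, 4 were higher in CD34lo and 2 in CD34hi cells, and their summed level was 63.8 to 109 CPM in CD34lo and 538 to 702 CPM in CD34hi libraries. That sum was mostly *Tek* (35.1 ± 11.4 and 543 ± 91.6 CPM) and *Kdr* (6.06 ± 1.87 and 53.1 ± 18.6 CPM), whereas *Pecam1* (14.7 ± 3.28 and 6.65 ± 3.57 CPM) and *Cdh5* (7.40 ± 1.14 and 3.03 ± 1.2 CPM) were lower in CD34hi cells. The gate removed CD31+ cells, and *Pecam1* encodes CD31. Its RNA was present in all 6 libraries (3.22 to 18.4 CPM), and its call was lost in 7 of 18 settings. With the pool as a block, 6 endothelial markers were higher in CD34lo cells.

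Pericyte and smooth muscle markers were higher in CD34lo cells for 8 of 10, such as *Acta2* (33.3 ± 5.04 and 3.24 ± 0.00763 CPM) and *Cspg4* (18.6 ± 2.68 and 3.12 ± 0.435 CPM). *Kcnj8* was higher in CD34hi cells (13.3 ± 3.65 and 34.7 ± 6.37 CPM) and *Abcc9* did not pass (106 ± 43.7 and 123 ± 22.8 CPM, log2 fold change 0.21). The summed level of the 10 was 235 to 310 CPM in CD34lo and 145 to 200 CPM in CD34hi libraries. *Abcc9* was the largest part of that sum in both populations, so the sum understates the difference of the 8. Mammary epithelial markers summed to 37.5 to 50.2 and 76.8 to 105 CPM, with 2 of 10 higher in CD34hi cells and 0 in CD34lo cells. These were *Krt19* (8.03 ± 1.00 and 50.7 ± 12.0 CPM) and *Cldn3* (0.883 ± 0.329 and 6.57 ± 1.13 CPM), and the other 8 did not pass. The higher sum in CD34hi cells came mostly from *Krt19*. Immune markers summed to 9.19 to 14.3 and 18.3 to 21.6 CPM (6 of 10 tested, 1 higher in CD34hi and 2 in CD34lo cells). The 1 higher in CD34hi cells was *Cd3e* (3.78 ± 1.92 and 14.9 ± 1.07 CPM), and the higher sum there came from this gene. Schwann cell markers summed to 20.1 to 25.3 and 9.95 to 11.5 CPM (6 of 8 tested, 1 higher in CD34hi and 4 in CD34lo cells). Fibroblast markers summed to 51612 to 57559 CPM in CD34lo and 37902 to 45512 CPM in CD34hi libraries (4 of 10 higher in CD34hi and 5 in CD34lo cells). The calls of *Cnn1* (smooth muscle), *Lyz2* (immune) and *Cdh19* (Schwann), each higher in CD34lo cells, were of genes that reached the low-count filter only through those cells. No marker was at 0 in all 6 libraries, and the part of these cell types in the ephrin and Eph results was not tested.

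As a description of likeness, the genes whose log2 CPM followed that of *Ephb6* most closely over the 6 libraries were *Wdr86*, *Tsc22d1*, *Gask1b*, *Angpt2* and *Sugp1*, with Pearson r of 0.998 to 0.999 among 8873 genes compared. Since the 6 points share the division into 2 populations, such values were frequent, and 1038 genes had an r above 0.9.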

How the data were processed

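Poly(A) RNA libraries were prepared by the authors with an Illumina TruSeq RNA v2 kit, aligned to GRCm38/mm10 and counted per gene with Rsubread 2.2.6. The authors deposited whole-number read counts per Entrez gene with gene lengths, and the counting annotation is not given in the sources used here. Genes were named through a RefSeq table (25275 of 27179 matched).

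Genes were filtered with filterByExpr, scaled by TMM and tested with the quasi-likelihood test of edgeR 4.0.16 (R 4.3.3) on the counts as deposited, CD34hi against CD34lo, with Benjamini-Hochberg adjustment over 15219 genes at 0.05. The SE of a log2 fold change is its size over the root of the F statistic. RPKM is CPM per kilobase of the deposited length. A prior count of 2 entered log2 CPM. Sums, shares and ratios were compared by exact permutation tests, two-sided, over the 6 libraries without regard to pool. Counting intervals and floors cover counting error only, and the common biological coefficient of variation was 19.7%.

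Both populations of a pool came from the same animals, and deviations from the population means correlated within pools 1, 2 and 3 by 0.279, 0.0844 and 0.243. The replicates were separate pools of mice. The chi-square per degree of freedom between libraries of a population was at least 23.1, so no 2 libraries were copies. Alternatives were limma-voom 3.58.1, DESeq2 1.42.0, other scalings and filters, the pool as a block, and each pool or library left out. From each pathway list, up to 3 genes per direction with the largest log2 fold change, an adjusted p under 0.05 and a mean log2 CPM of at least 0 were named, besides all 10 ephrin-B and Eph genes, the 5 genes most like the one with the smallest adjusted p, and marker totals. Marker genes, *Cd34*, *Pdgfra*, *Efna4*, *Epha8* and *Arhgef15* were named outside that rule, after their values were seen. The genes and lists were chosen with earlier results of these data known.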

Additional observations from a re-analysis of the deposited data

How the results depend on the processing

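The 10 ephrin-B and Eph genes kept their direction in all 178 comparisons with an alternative setting, and 161 also kept their side of the threshold, while 4 lost a call (all *Ephb2*) and 13 gained one (*Efnb1*, *Ephb1* and *Ephb4*). Of the 10 genes, 6 to 8 passed when a pool or a library was left out, and 9 with the pool as a replicate block, which raised the number of genes called from 5411 to 6161 and, beside *Efnb1* and *Ephb4*, changed no call among the 10. At an adjusted p under 0.01, 3444 genes were called, 1559 higher in CD34hi and 1885 higher in CD34lo cells. Leaving out a pool or a library gave 3468 to 5236 genes, 1608 to 2456 higher in CD34hi and 1860 to 2780 higher in CD34lo cells, settings that hold fewer libraries. Signs turned, without a call, when libraries were left out for *Efna4* (log2 fold change -0.0080 to 0.88), for *Abcc9* (-0.029 to 0.68), for the *Ephb1* share of the receptor level (-0.40 to 0.042 percentage points) and for the *Ephb3* share (-2.27 to 0.089 percentage points). The calls of *Pecam1* and *Pdgfra* were lost in 7 and 5 of 18 settings and that of *Cdh5* in 1. Counts of 2 to 93 a library limit *Ephb1*, and those of 7 to 61 limit *Efnb3*.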
